A study of Homo sapiens with 2 samples.

Results

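Narrow 3' UTR peaks are the m6A peaks that the authors labelled as lying in a 3' untranslated region and that span fewer than 600 bp. They were chosen by that label and by the deposited peak width, which is itself a measured value of the comparison of m6A-RIP with input. There were 3752 of them, 9.43% (95% Wilson interval 9.14 to 9.72) of 39801 peaks in all and 65.3% (64.0 to 66.5) of the 5749 peaks labelled 3' UTR. The other 1997 peaks with that label, of 600 bp or wider, are called broad here. The data come from HCCLM3, an established human hepatocellular carcinoma line with high metastatic capacity, of WT genotype and with no treatment named in the labels. Total RNA gave 1 library from the m6A immunoprecipitate (RIP) and 1 input library, so neither group has a replicate and no difference below has a replicate check. The series was made to study CRTC2, which helps CREB to activate transcription, together with the m6A reader YTHDF2, but these libraries hold no group that differs in either protein.

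N6-methyladenosine (m6A) is a methyl mark that a writer complex built around METTL3 and METTL14 places on adenosines of mRNA, mostly in the sequence GGAC and its relatives. It is dense around stop codons and in 3' UTRs, where reader proteins such as YTHDF2 bind it and lead the transcript to deadenylation and decay, while the IGF2BP readers are known to stabilise their targets. An antibody peak marks a stretch of RNA and not a single adenosine, so a narrow peak is one whose enriched stretch is short, on a scale set also by the length of the RNA fragments.

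Reference bases were at hand for 13 members only, where part of the peak also lay in a RefSeq promoter window (GRCh38.p14). The window was that of another gene except for LOC124902206, where the gene's own window covered 21 bases of the peak. In 12 of the 13 the strand of the gene holding the summit was known. The motif GGAC followed by A, C or T was searched on the strand of that gene only, since the mark is carried by RNA. It was present in the covered stretch of 8 members and not found in that of the other 4 (NRGN, RBM47, LRRC8A and LOC124902206). Stretches of 29 bases from 6 of the 8 are shown to make the motif and its place relative to the summit visible, each read 5' to 3' along the gene, with the motif in capitals. The covered stretches of HERC6, PIMREG and CCDC43 held 2 motifs each, and the one nearest the summit was taken.

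PIMREG: tgctttcctaggGGACTcttgagcttaga
HERC6: tggtccattccaGGACCttcatttgcata
PACSIN2: tcatttcgcctgGGACTcggcacctttcc
REPIN1: tgctggagtaggGGACAatgggaatccta
CCDC43: aggaaaaaaaaaGGACAcagagaggggag
PTGDR2: acttcccccattGGACAcgtggtgcattt

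In HERC6 the adenosine of the motif lay 7 bases upstream of the summit (chr4:88442724-88442752), and in PIMREG 12 bases downstream of it (chr17:6450597-6450625). It lay 25 bases upstream in PACSIN2 (chr22:42871182-42871210), 71 bases downstream in REPIN1 (chr7:150373030-150373058), 92 bases upstream in CCDC43 (chr17:44678868-44678896) and 112 bases upstream in PTGDR2 (chr11:60851075-60851103). HERC6, whose motif was nearest, rested on the fewest fragments of the 6, with 4 RIP fragments and a fold of 2.86 (1.36 to 6.08), whereas CCDC43 had a fold of 6.67 (5.07 to 8.63) on 55 fragments. Of 5 members with all 101 bases around the summit covered, 2 held the motif. The same search in 101 bases of each of 34796 promoter windows found it in 8801 (25.3%). A match is a description of these letters and does not mark a methylated site, and the absence of one in a part of a peak carries no information on the rest.

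Each peak carries a fold, which is the authors' linear ratio of the scaled RIP signal to an input level, with a pseudocount of 1 in both. From the fold and the p-value, the number of RIP fragments over the summit and the input level were recovered for all 3752 members. The number of fragments was a single whole number for 98.4% of them. The input level is the background value that the fold implies and not a count of input fragments at the summit. Fractions such as 0.296 recur among its values, and none fell below 0.246. The RIP library was 1.56 times the size of the input, and the total depth of either is unknown. Beside a fold stands the exact 95% Poisson interval of its RIP count at a fixed input level. These and the Wilson intervals cover counting error only. PCR copies could not be told from separate molecules, since no molecular identifiers are described.

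The members ranged in width upward from 296 bp with a median of 380 bp (quartiles 324 to 472). Their median fold was 3.74 (quartiles 2.81 to 5.15, range 1.15 to 18.5) on a median of 26 RIP fragments (12 to 51) and a median input level of 3.0. A q-value under 0.05 was reached by 2693 members (71.8%) and one under 1e-5 by 1589 (42.4%). Over all peaks of the list the same thresholds were passed by 48.8% and 25.8%. The caller's q-value was 1 for 407 members (10.8%), and 239 (6.37%) rested on at most 3 RIP fragments. Width, fold and q-value come from the same comparison, so these values describe the members and support nothing further.

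The narrowest members formed a group of weak peaks. The 440 members under 300 bp had a median fold of 2.35 on a median of 6 fragments, and 26.4% of them had a q-value under 0.05. From 300 bp to under 400 bp there were 1715 members with a median fold of 3.65 on 26 fragments, and 74.9% passed that threshold. The 889 members from there to under 500 bp had a median fold of 4.45 and the 708 widest members one of 4.38, with 80.3% and 81.8% past the threshold. Widths of at most 301 bp, at the lower limit of the list, were held by 489 members (13.0%). The commonest value in the set was a fold of 2.35 from 3 RIP fragments on the lowest input level of 0.246, shared by 136 members (3.62%). Of the 440 narrowest, 186 rested on at most 3 fragments.

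**Figure D1:**
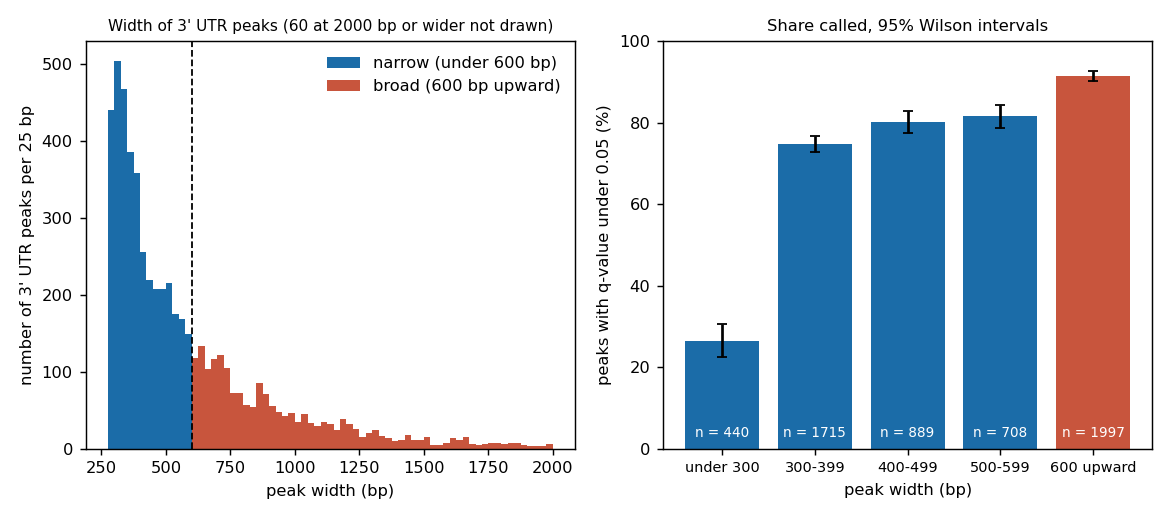
Left, number of 3' UTR peaks per 25 bp of width, with the narrow members in blue, the broad peaks in red and the limit of 600 bp as a dashed line; 60 peaks of 2000 bp or wider are not drawn. Right, share of peaks with a q-value under 0.05 in 5 width classes with 95% Wilson intervals, which is 26.4% under 300 bp, between 74.9% and 81.8% in the other narrow classes and 91.5% in the broad peaks.

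The limit of 600 bp cut through a continuous range of widths. Just inside it, 1 bp short of the limit, lay GMEB2, a DNA-binding protein of glucocorticoid-responsive genes, with a fold of 9.21, B4GALT5, a galactosyltransferase, with 3.46, and ING5, a chromatin reader, with 8.28. Just outside, at 600 bp, lay EIF2B1, a subunit of a translation initiation factor, with a fold of 4.30, ANKRD33B with 3.71 and ZNF22, a zinc finger gene, with 2.12.

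Broad peaks had a median fold of 5.10 (quartiles 3.71 to 7.11) on 48 fragments and an input level of 5.0, so the median of the narrow members was 0.734 times theirs. The ratio was below 1 within each class of RIP fragments: 0.866 under 10 fragments, 0.868 from 10 to 19, 0.756 from 20 to 39 and 0.770 from 40 upward. In the last of these classes the narrow members had a median fold of 4.13 at an input level of 9.0, against 5.37 at 8.0 in the broad peaks. Width comes from the same comparison as the fold, so these ratios only describe the split by width.

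**Figure D2:**
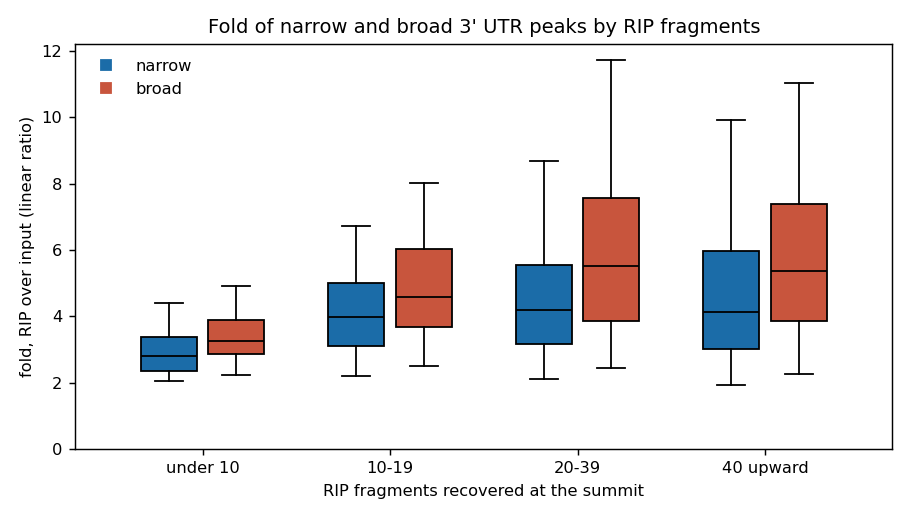
Fold (RIP over input, linear) of narrow (blue) and broad (red) 3' UTR peaks in 4 classes of RIP fragments at the summit; boxes give the quartiles, lines the medians and whiskers the 5th and 95th percentiles. The narrow median is lower in each class, by a ratio between 0.756 and 0.868.

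The genes holding the summits were then identified. The summit lay in a protein-coding gene for 3692 members (98.4%), in a non-coding gene or pseudogene alone for 10, in no RefSeq gene span for 20 and on a sequence outside the main chromosomes for 30. Together they named 3197 protein-coding genes, 16.0% of 20033. The gene that the deposited table prints beside a peak spanned the summit for 1711 members only (45.6%, interval 44.0 to 47.2). For 2123 of the 3692 members in a protein-coding gene (57.5%) the deposited gene was a different one. In 1571 of these cases (74.0%) it was another protein-coding gene, in 308 (14.5%) a long non-coding RNA and in 137 (6.45%) a microRNA. None of the members overlapped a microRNA hairpin of RefSeq, and where a hairpin position was given, for 110 members, it lay a median of 11790 bp from the summit and never nearer than 3209 bp. Broad peaks showed a similar share, with the deposited gene at the summit for 48.1%. A gene list read from the deposited column would share 1486 genes with the summit genes, 46.5% of the latter and 48.2% of the 3080 deposited ones.

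POLR1F, a subunit of RNA polymerase I, shows the size of such a shift. Its peak at chr7:19698149-19698659 had the lowest p-value of the members (−log10 p 65.1), a fold of 11.4 (9.57 to 13.4) and 140 RIP fragments on an input level of 7.0, and the deposited table assigned it to MIR3146. The summit of PDPK1, the kinase that activates AKT (chr16:2597744-2598222), had a fold of 9.72 on 150 fragments and was assigned to LOC652276. That of SEMA3C, a secreted semaphorin (chr7:80744729-80745274), had a fold of 11.6 on 129 fragments and was assigned to CD36, a fatty acid transporter gene next to it. NTN4, a netrin of the basement membrane, had a fold of 10.5 on 121 fragments under the name of PGAM1P5, and GMEB2 had its 142 fragments under that of HELZ2. Of the members with the lowest p-values, ZBTB7A, a transcriptional repressor with 194 fragments on an input level of 18 and a fold of 6.60, SAC3D1 with a fold of 8.16 and CIAO1 with 6.70 kept their own names.

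Some summits cannot be given to 1 gene. A total of 276 members (7.36%) lay in more than 1 protein-coding gene, and in 197 of these (71.4%) the genes run on opposite strands, as where neighbouring genes meet at their 3' ends. Peaks have no strand in the table, and the gene was taken as the one whose 3' end is nearest. WTAP, CREB1 and TOMM40L are named below under this limit.

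Most summit genes held a single narrow peak. This was so for 2787 genes (87.2%), while 344 held 2, 49 held 3, 15 held 4 and 2 held 5. The 2 with 5 were PCNX4, a pecanex homologue, and ANKRD33B. In PCNX4 the peaks rested on 4 to 16 fragments with folds of 2.75 to 5.16. Only those with q-values of 0.00415 and 4.79e-05 were under 0.05. In ANKRD33B the peaks rested on at most 14 fragments with folds of 1.85 to 4.28, and a further peak of exactly 600 bp lay among them. Of its narrow peaks only those with q-values of 0.00266 and 0.0432 were under 0.05. ATXN1, the ataxin 1 gene, held 4 with folds of 3.56 to 5.62. BICD1, a dynein adaptor, held 4 with folds of 2.31 to 3.85, of which 1 rested on 3 fragments. Only the BICD1 peaks with q-values of 0.0102 and 0.0174 were under 0.05. ATXN1 and BICD1 come from the 15 genes with 4, of which the first in alphabetical order were taken. Neighbouring narrow summits of the same gene lay a median of 1331 bp apart (quartiles 799 to 2896), and 35.4% of 495 such gaps were under 1000 bp. Some genes of the lists below held 2 narrow peaks, of which only the one of higher fold is given. They are CREB1, CNOT4, DDX6, AGO1, GAB1, IGF1R, TEAD1, NKD1 and ZNF326. The peak left out rested on 3 to 5 fragments in NKD1, GAB1, CREB1 and ZNF326, and on 10 to 72 in the rest.

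Position along the gene entered the rule through the label 3' UTR, which the broad peaks share, but not through the width limit. For the 3584 members whose summit gene is protein-coding and of known strand, the summit lay a median of 1743 bp (quartiles 601 to 3936) upstream of the 3' end of the gene span. The corresponding median of 1940 broad peaks was 2373 bp (1040 to 4622). Within 200 bp of the end lay 361 narrow summits (10.1%, interval 9.13 to 11.1) and 60 broad ones (3.09%, 2.41 to 3.96). The narrow share was the higher in each class of RIP fragments, at 8.71%, 12.3%, 11.2% and 8.78% against 5.21%, 4.58%, 2.64% and 2.79%, although the intervals overlap in the lowest class. Width enters this comparison, because the summit of a wide peak has more of the peak on its 3' side. Measured from the 3' edge of the peak, the median was 1547 bp for narrow and 1813 bp for broad peaks, the edge fell within the last 200 bp for 8.62% and 7.01%, and it ran past the end of the gene for 11.5% and 12.2%. The distance of the narrow peaks was therefore closer to that of the broad ones when edges were compared than when summits were.

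Examples near the end of the gene were SEPHS1, a selenophosphate synthetase homologue, 127 bp from it with a fold of 16.6 (12.6 to 21.5), and ATP6V1C1, a subunit of the proton pump of lysosomes, 146 bp from it with a fold of 15.5 (12.6 to 18.8). At the other extreme, 696 summits (19.4%) lay more than 5000 bp and 90 (2.51%) more than 50000 bp from the end of the span. ARMC8, a subunit of a ubiquitin ligase, held such a peak 53060 bp from it (chr3:138245118-138245540), and ASPH, an aspartyl hydroxylase gene, one at 164859 bp. The label 3' UTR at these places comes from the authors' annotation, and the transcript models behind it were not used here. Median fold differed little with distance, at 3.89 within 200 bp, 3.54 from 200 to 1000 bp, 3.85 from 1000 to 5000 bp and 3.79 beyond.

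**Figure D3:**
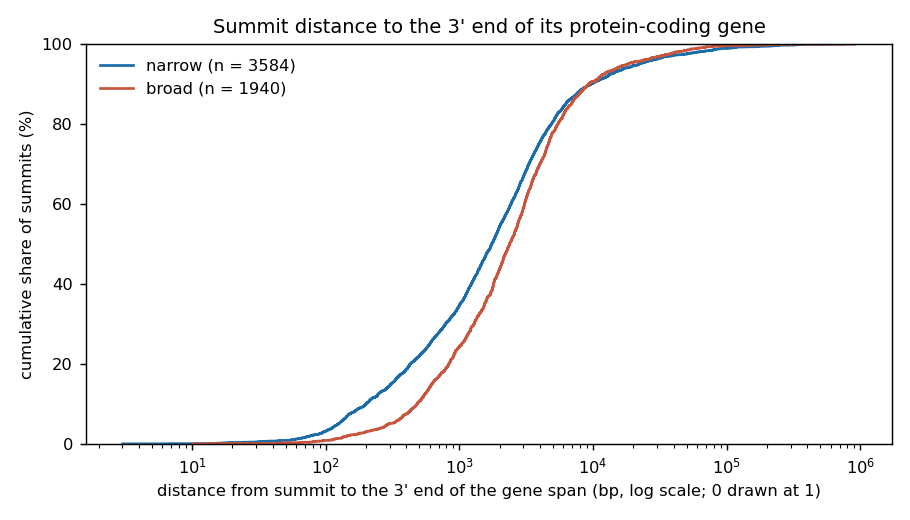
Cumulative share of summits (%) by distance to the 3' end of the protein-coding gene span (bp, log scale) for 3584 narrow (blue) and 1940 broad (red) 3' UTR peaks. The blue curve lies to the left up to about 5000 bp, with 34.7% of narrow and 24.3% of broad summits within 1000 bp, and the curves meet beyond 5000 bp.

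Within a peak the summit lay at a median of 0.461 of the length from the 5' edge in narrow members and at 0.403 in broad peaks. It was on the 5' side of the middle in 63.3% and 60.7% of them. The narrow share of the 3' UTR peaks also varied between chromosomes, from 54.4% on chromosome 19, with 248 members, to 76.2% on chromosome 14, with 138, among chromosomes with more than 100 members.

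Genes that held both kinds of peak were looked at side by side. Width and fold come from the same comparison within a gene too, so the split by width is not independent of the fold. There were 401 such genes, or 12.5% of the genes with a narrow and 21.6% of those with a broad peak. In the 300 with 1 of each, the broad peak had the higher fold in 206 (68.7%), and the ratio of narrow to broad fold had a median of 0.751 (quartiles 0.467 to 1.07). Where the input levels of both peaks were within 2-fold, in 161 genes, the broad peak was higher in 117 (72.7%) and the median ratio was 0.692. The narrow summit was the nearer to the 3' end in 199 of 295 genes (67.5%), and the summits were a median of 1654 bp apart. TMEM70, needed for assembly of the mitochondrial ATP synthase, had a narrow fold of 3.11 on 76 fragments and a broad one of 16.3 on 51, at input levels of 15 and 1.07. VPS37B, an ESCRT subunit, had a narrow fold of 2.53 and a broad one of 12.4. In the opposite direction, ENDOD1, an endonuclease domain gene, had a narrow fold of 6.75 on 30 fragments 181 bp from its end and a broad one of 2.31 on 20 fragments further upstream. GOLGA3, a golgin, had a narrow fold of 6.77 on 104 fragments against 2.96 on 100. These genes were those of highest and lowest ratio with at least 10 fragments under both summits, so they show the extent of the range.

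Many of the transcripts carried further peaks. Of the 3197 genes with a narrow 3' UTR peak, 1087 (34.0%) also held a peak labelled as exon, 1350 (42.2%) one labelled as intron, 820 (25.6%) one labelled as promoter and 128 (4.0%) one in a 5' UTR. No peak outside 3' UTRs was listed for 1056 (33.0%, interval 31.4 to 34.7), against 27.6% (25.6 to 29.7) of genes with a broad peak. A lone narrow peak was the gene's only peak in 878 genes (27.5%). Ranked by p-value, the narrow peak was the strongest of its gene in 1918 genes (60.0%), which by construction include the 878 with no other peak. An exon peak was the strongest in 463 (14.5%), an intron peak in 277 (8.66%), a broad 3' UTR peak in 248 (7.76%) and a promoter peak in 242 (7.57%).

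The highest folds among the members were held by genes of varied roles. ARMC8 had a fold of 18.5 (14.02 to 24.1) on 53 RIP fragments and an input level of 0.888. TOMM40L, a homologue of a mitochondrial import pore, followed with 17.5 (13.1 to 22.9) on 49 fragments and an input level of 0.858. FBN1, the fibrillin of elastic fibres, had 17.2 (13.1 to 22.2) on 57 fragments and an input level of 1.18, at chr15:48410689-48411238. The intervals of these and of the next 7 overlap, so their order is not resolved. Those 7 were SEPHS1, MYO9A, an unconventional myosin, SIL1, an exchange factor of the endoplasmic reticulum chaperone BiP, RABGEF1, an activator of RAB5, ATP6V1C1, RIPK2, the kinase downstream of NOD receptors, and FAM120C, with folds of 15.1 to 16.6. All 10 rested on 41 to 99 fragments at input levels of 0.651 to 3.17.

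The lowest folds that still had a small q-value lay at high input levels. This follows in part from the choice of members, since a low fold reaches a small q-value only on many fragments. EEF2, the elongation factor that moves the ribosome along mRNA, had the highest input level among members with a q-value under 0.05, 91, with 233 RIP fragments and a fold of 1.64 (1.43 to 1.86). NHERF2, a scaffold of membrane transporters, had 261 fragments on 89 and a fold of 1.87 (1.65 to 2.11). LGALS3BP, a secreted glycoprotein, KIF1C, a kinesin, ASPH and PDIA4, a protein disulfide isomerase, had input levels of 75 to 82 and folds of 1.49 to 2.02. The lowest folds with a q-value under 1e-5 also included SYNGR2, TIMELESS and TULP3, at 1.96 to 1.98 on 127 to 137 fragments. Over all members, without a limit on the q-value, the input level reached 136.

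**Figure D4:**
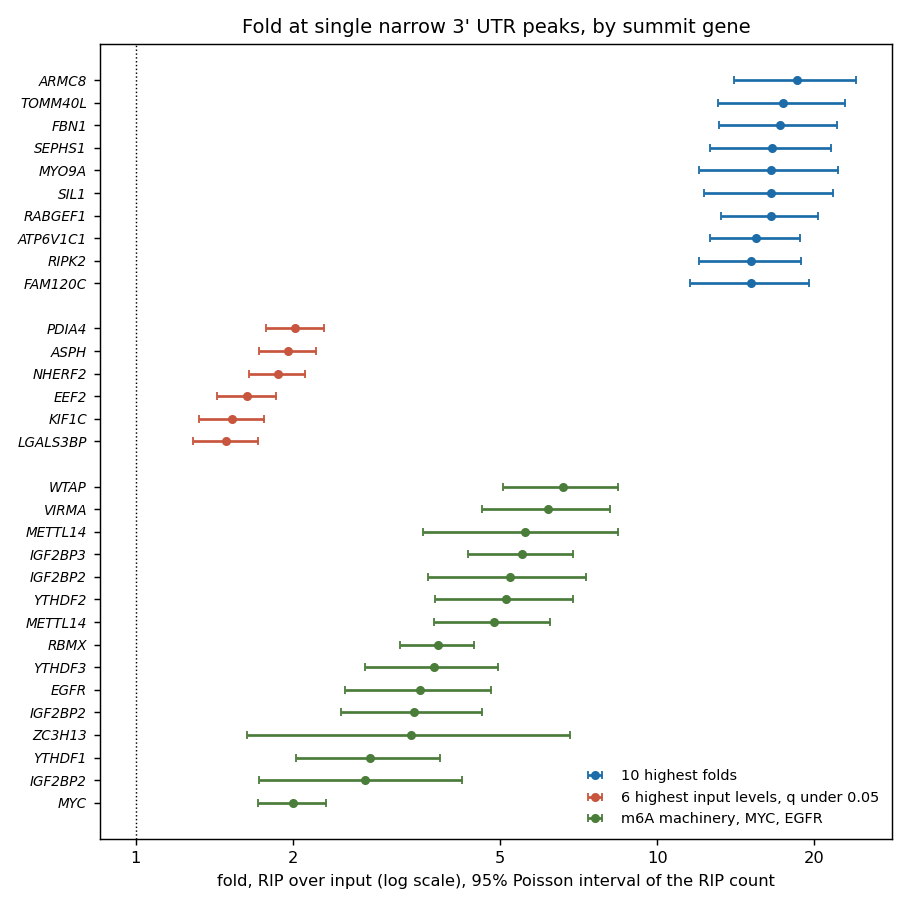
Fold (RIP over input, log scale) at single narrow 3' UTR peaks, 1 row per peak, with exact 95% Poisson intervals of the RIP count; the dotted line marks a fold of 1. The 10 highest folds (blue) lie between 15.1 and 18.5, the 6 members of highest input level among those with a q-value under 0.05 (red) between 1.49 and 2.02, and the peaks of m6A machinery genes, MYC and EGFR (green) between 2.0 and 6.58.

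Genes of the m6A machinery were themselves among the summit genes. Of 11 writers, 9 held a peak of any label and 3 a broad 3' UTR peak, beside 47.7% and 9.26% of all protein-coding genes. A narrow 3' UTR peak was held by 4 of the 11, 3 of them with a q-value under 0.05, beside 16.0% and 12.1% of all. Among genes with any peak the narrow share was 44.4%, from these 4 writers only, against 33.4% over all genes. METTL14, the partner that positions METTL3 on RNA, held 2, with folds of 4.86 (3.73 to 6.23) on 59 fragments and 5.58 (3.56 to 8.39) on 20. WTAP, which anchors the complex in nuclear speckles, had a fold of 6.58 (5.06 to 8.42) on 60 fragments, with ACAT2 as the deposited gene, and VIRMA, the scaffold that steers methylation to 3' UTRs, one of 6.18 (4.61 to 8.13) on 48. The peak of ZC3H13 rested on 5 fragments and had a q-value of 0.0537. METTL3 held none.

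Of 16 erasers and readers, 6 held a narrow peak, all 6 with a q-value under 0.05, and YTHDC2 alone held a broad one. Over all protein-coding genes 16.0% held a narrow peak, 12.1% one with a q-value under 0.05 and 9.26% a broad one. A peak of any label was held by 12 of the 16, against 47.7% of all. YTHDF2, the reader at the centre of the series, had a fold of 5.14 (3.75 to 6.88) on 42 RIP fragments and an input level of 4.44 at chr1:28768967-28769325, 563 bp from its end. YTHDF3 had 3.73 (2.76 to 4.95) on 45 fragments. YTHDF1 had 2.82 (2.03 to 3.83) on 38, 143 bp from its end and under the deposited name MIR124-3. The interval of YTHDF2 overlaps that of YTHDF3 and, narrowly, that of YTHDF1. IGF2BP2 held 3, with folds of 5.22, 2.76 and 3.41 from the one nearest the end to the one furthest from it, of which the middle one had a q-value of 0.115. IGF2BP3, an oncofetal reader, had 5.50 (4.34 to 6.89) on 73 fragments, and RBMX, whose binding is exposed by m6A, 3.80 (3.22 to 4.45) on 148. The erasers FTO and ALKBH5 held no 3' UTR peak.

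CRTC2 held no 3' UTR peak of either width and 3 peaks with other labels. Of 19 genes for CREB, its coactivators and its regulators, 9 held a narrow peak and 7 had one with a q-value under 0.05, beside 16.0% and 12.1% of all protein-coding genes. A broad 3' UTR peak was held by 6 of the 19, beside 9.26% of all. A peak of any label was held by 17 of the 19, against 47.7% of all. Among genes with any peak the narrow share was 52.9% against 33.4%, and the broad share 35.3% against 19.4%. ATF1, a close relative of CREB, had a fold of 12.4 (9.85 to 15.5) on 76 fragments, and SIK3, a kinase that keeps CRTC proteins in the cytoplasm, one of 11.9 (8.60 to 16.1) on 39 fragments, listed under APOA1. PRKAR1B, a regulatory subunit of protein kinase A, had 6.98 (5.54 to 8.69). CREB1 had 6.15 (4.69 to 7.94) at a summit that METTL21A also spans. CRTC1, the paralogue of CRTC2, held 2, with folds of 3.69 and 3.54 on 11 and 15 fragments.

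Among decay factors, the machinery to which YTHDF2 is known to deliver its targets, 17 of 44 held a narrow and 3 a broad 3' UTR peak, and 15 had a narrow one with a q-value under 0.05. Over all protein-coding genes 16.0% held a narrow peak, 12.1% a narrow one with a q-value under 0.05 and 9.26% a broad one. A peak of any label was held by 36 of the 44, against 47.7% of all. Among genes with any peak the narrow share was 47.2%, against 33.4% over all genes. UPF3A, of nonsense-mediated decay, had the highest fold of the list, 8.69 (5.30 to 13.6) on 16 fragments. Subunits of the CCR4-NOT deadenylase followed: CNOT4 with 7.66 (6.05 to 9.58) on 74 fragments, CNOT8 with 6.37 (5.02 to 7.97) on 73 and CNOT6 with 5.55 (3.70 to 8.03) on 25. DDX6, a helicase of decay bodies, had 3.62 (3.0 to 4.33) on 117. The list's median of each gene's best narrow fold was 3.76, beside 3.89 over all summit genes.

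Of 15 genes for microRNA silencing, 7 held a narrow and 3 a broad peak, beside 16.0% and 9.26% of all protein-coding genes, and 13 held a peak of any label. DROSHA, the nuclear enzyme that cuts microRNA precursors, had a fold of 10.3 (6.82 to 15.02) on 24 fragments, and its partner DGCR8 5.37 (4.10 to 6.91) on 57. TNRC6B, a scaffold of the silencing complex, had 10.3 (7.48 to 13.8) on 41, and AGO1 had 4.28 (2.58 to 6.80) on 15. Translation initiation genes were near the share of all genes with 7 of 46, led by EIF5B, which joins the ribosomal subunits, at 9.53 (7.85 to 11.5) on 110 fragments. Of 79 cytosolic ribosomal protein genes only RPL37 held one. Its fold was 2.84 (1.90 to 4.11) on 25 fragments, and the deposited gene was SNORD72. Any peak at all was listed for 6 of these 79 genes, against 47.7% of protein-coding genes.

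Signalling lists held narrow peaks at shares above the 16.0% of all protein-coding genes. More of their genes also held a peak of any label, with 83.3% in the EGFR, MAPK and PI3K list against 47.7%. In the EGFR, MAPK and PI3K list, 18 of 48 genes held a narrow peak (45.0% of those with any peak, against 33.4% over all genes), 14 with a q-value under 0.05, and 13 held a broad one. PIK3CA, the catalytic subunit of PI3-kinase, had a fold of 14.2 (10.9 to 18.2) on 60 fragments, PDPK1 the 9.72 (8.24 to 11.4) given above, GAB1, an adaptor, 5.94 (3.52 to 9.56) on 14 fragments, and IGF1R 5.10 (3.94 to 6.50) on 62. EGFR held 2 broad peaks and a narrow one listed under EGFR-AS1, whose fold was 3.51 (2.52 to 4.79) from 37 fragments on an input level of 6.04. Of 10 receptor kinases that lenvatinib inhibits, none held a narrow or broad 3' UTR peak, and 1 held a peak of any label.

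The Hippo list had 11 of 30 genes with a narrow and 4 with a broad peak, beside 16.0% and 9.26% of all protein-coding genes. A peak of any label was held by 25 of the 30, against 47.7% of all. AJUBA, an inhibitor of LATS kinases, and TAOK1, a kinase upstream in the pathway, had the same fold to 3 digits, 7.52, on 104 and 90 fragments. TEAD1, the DNA-binding partner of YAP, had 6.49 (4.85 to 8.51) and LATS1 6.10 (4.52 to 8.07). YAP1 itself had 3.53 (2.99 to 4.14) on 147 fragments. The Wnt list had 15 of 42 with a narrow and 6 with a broad peak, and 33 of the 42 held a peak of any label. LRP5, a Wnt coreceptor, had 9.86 (8.10 to 11.9) on 106 fragments. Of the feedback inhibitors, NKD1 had 9.72 (7.18 to 12.9) on 45 in the stronger of its 2 narrow peaks. AXIN2 had 7.17 (5.78 to 8.79) on 89.

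Cell cycle and apoptosis lists lay nearer to the 16.0% of all protein-coding genes, with a narrow peak in 8 of 41 and 8 of 35. E2F8, a repressor of the E2F family, had a fold of 7.70 (4.56 to 12.4) on 14 fragments, CDC25A, a phosphatase that activates CDK2, 6.32 (4.31 to 8.99), and MDM2, the ubiquitin ligase of p53, 4.54 (3.45 to 5.87). BBC3, the pro-death protein PUMA, had 5.96 (4.59 to 7.63) on 60 fragments. MYC had a fold of 2.0 (1.72 to 2.32) on 173 fragments and an input level of 55, in a peak 1 bp short of the width limit. Its low fold stood beside a high input level, as in EEF2, and a link between them was not tested.

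Of 18 hepatocyte markers, 9 held a peak of any label and 4 (22.2%, interval 9.0 to 45.2) a narrow 3' UTR peak. These shares were close to the 47.7% and 16.0% of all protein-coding genes. The table gives no expression level against which to check the cell type. Genes with a narrow peak included HNF4A, a regulator of hepatocyte genes, with a fold of 3.53 (2.72 to 4.51) on 61 fragments, FGB, fibrinogen beta, with 2.51 (1.95 to 3.19) on 65, and FOXA3 with 3.74 on 6. Of 14 oncofetal and progenitor markers, IGF2BP3 alone held one. Of 8 immune markers and 11 endothelial and stromal markers none held a narrow peak, beside 16.0% of all protein-coding genes. A broad 3' UTR peak was held by 1 endothelial or stromal marker, and a peak of any label by 3 of these and 1 immune marker. In these bulk libraries a gene without a peak may be unmethylated there or may have too little RNA, and this was not tested.

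The C2H2 zinc finger genes, a large family of transcription factors concentrated on chromosome 19, differed in which kind of peak they held. A narrow peak was held by 97 of 509 (19.1%) and a broad one by 186 (36.5%), whereas over all protein-coding genes narrow peaks were the commoner, at 16.0% against 9.26%. Among the 364 zinc finger genes with any peak the shares were 26.6% and 51.1%, and among the 9561 protein-coding genes with any peak 33.4% and 19.4%. The highest narrow folds in the family were 10.1 in ZNF12, 9.45 in ZNF326, 8.30 in ZNF532 and 8.29 in ZNF592. The family's median of each gene's best narrow fold, 3.92, was close to that of all genes, at a median input level of 1.63 against 3.0.

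**Figure D5:**
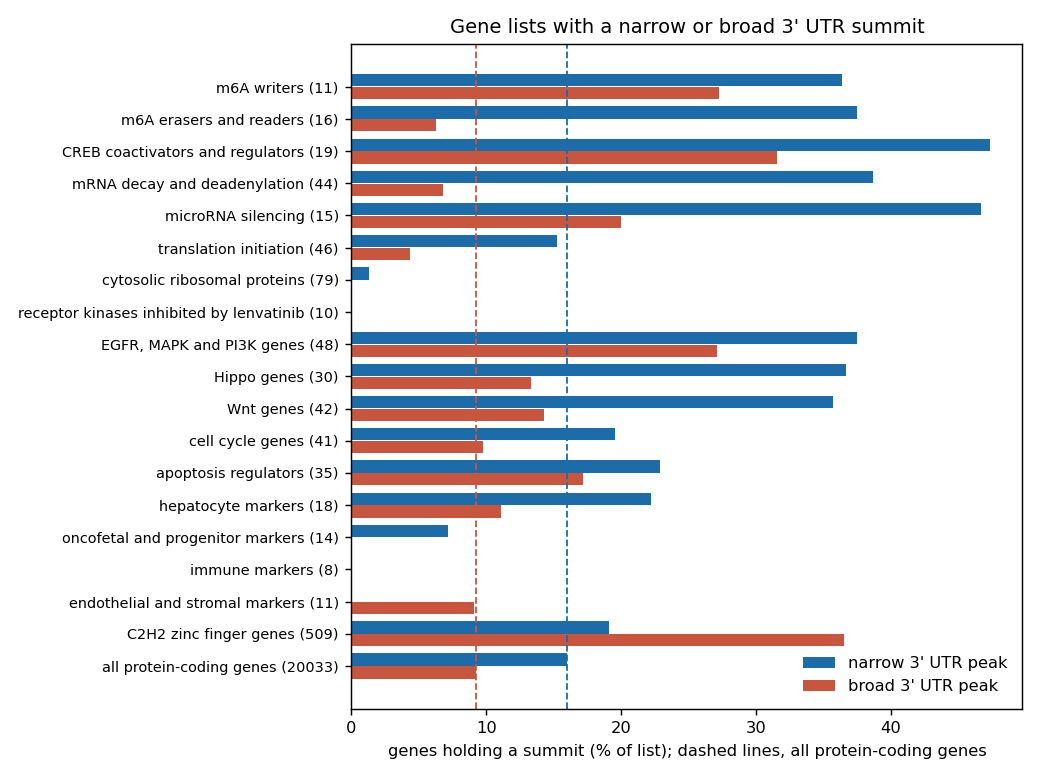
Share of each gene list (%, number of genes in parentheses) that held the summit of a narrow (blue) or a broad (red) 3' UTR peak; the dashed lines mark the shares of all protein-coding genes, 16.0% and 9.26%. Narrow exceeds broad in each list that holds a narrow peak except the C2H2 zinc finger genes, where broad is higher.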

How the data were processed

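The members, the gene lists and the rule for named genes were chosen with earlier results of these data known. The submitters' processing notes name HISAT2, MACS2 and hg38, with no settings or versions. The authors deposited 1 peak table for the RIP library over the input library. Its fold column is a linear ratio, RIP over input, per the file headers. Headers of the next columns were damaged; from their values these deposited columns hold the −log10 p-value and −log10 q-value. Width and the region label were kept as deposited.

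The number of RIP fragments (k) and input level were solved from fold and p-value (scaling factor 0.642, pseudocount 1, Poisson tail), and all members were met within 0.001 on the −log10 scale. The step was tested on data simulated with the same formula, which cannot show that the formula is the one the caller used. The summit is the start plus the deposited offset. It was assigned to RefSeq gene spans of GRCh38.p14, a protein-coding gene first and of several the one whose 3' end is nearest. Strand was known for 97.1% of members in protein-coding genes. No columns of other samples were present. With 1 library per group no test was made and no p-value computed; the q-values are the authors' caller's. Intervals are 95% Wilson or exact Poisson. Genes named were, among members in protein-coding genes, the 10 of highest fold and 10 of lowest p-value (q-value under 0.05), the 6 of highest input level (q-value under 0.05), the 6 of lowest fold with a q-value under 1e-5, the 5 with most peaks, the 6 of lowest p-value with another deposited gene, 3 on each side of the width limit, up to 4 per list and a fixed set of m6A and oncogenes; a few further list members and gene pairs were named after their values were seen. Alternatives were q-value limits of 0.05 and 1e-5, at least 10 fragments, width limits of 500 and 700 bp, unambiguous summits and any overlap with the deposited gene. Python 3.11.15, pandas 2.3.3, numpy 2.4.6, scipy 1.17.1 and matplotlib 3.10.9 were used. Some members that the rule names are not reported here.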

Additional observations from a re-analysis of the deposited data

How the results depend on the processing

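Of 34 alternative values of the 6 main results, 22 stayed within the 95% interval of the main value or within 1.5 times the main count, and 12 did not. With peaks of a q-value under 1e-5 only, the narrow 3' UTR peaks numbered 1589 in 1480 protein-coding summit genes, at a median of 1874 bp from the 3' end. The median fold of the narrow peaks, 3.74, was 4.40 at a q-value under 0.05, 5.37 under 1e-5, 4.06 with at least 10 RIP fragments, and 3.63 and 3.80 at width limits of 500 and 700 bp. The ratio of narrow to broad median fold was 0.813, 0.893 and 0.771 under the first 3 of these, below 1 in each. The deposited gene spanned the summit for 43.2% when summits in more than 1 gene were left out. Leaving out weak peaks raises a median fold by construction; the cause of the other shifts was not tested. No replicate could be left out, and no paired analysis was possible because each group has 1 library. Depth limits the peaks of few fragments most: at 3 fragments the interval of a fold spans more than 4-fold.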
